A study of Mus musculus with 10 samples.

Results

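Growth factor ligands and the receptor tyrosine kinases that bind them were followed in 2 mouse mammary tumour lines kept in culture. The set held 38 genes, chosen by name, of the 18103 genes counted: 16 receptors and 22 ligands of the EGF, FGF, HGF, PDGF, VEGF, IGF, KIT, AXL and discoidin domain receptor (DDR) families. RNA was sequenced from MTΔECad cells, a mesenchymal breast cancer line named for its loss of E-cadherin, and from Py2T-LT cells, the long-term form of a line from a mouse mammary tumour. There were 5 groups of 2 libraries, all taken as 7 days. The MTΔECad groups were cells with rosiglitazone and control cells. The Py2T-LT groups were cells with BMP2 and a MEK inhibitor (BMP2+MEKi), cells with the MEK inhibitor alone (MEKi), and control cells. Unlike the other library names, those of the MTΔECad control libraries state no day. The usual doses in the protocol were 2 µM rosiglitazone, 200 ng/ml BMP2 and 40 µM of the MEK inhibitor PD98059, with DMSO medium for controls, and no dose is given for an individual library. In that protocol BMP2 is joined by rosiglitazone after the first days, but no rosiglitazone is named for the BMP2+MEKi libraries, and whether those cells received it is not known here. The E-cadherin loss is shared by both MTΔECad groups, and each line is a single line, so line, origin and E-cadherin loss cannot be told apart.

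Receptor tyrosine kinases cross the cell membrane, pair when a ligand binds outside, and phosphorylate each other inside the cell. The signal runs through RAS, RAF, MEK and ERK, and in parallel through PI3-kinase and AKT, and PD98059 blocks the step at which MEK is activated. BMP2 acts through a different class of receptors that phosphorylate SMAD proteins, and rosiglitazone binds the nuclear receptor PPARγ, the main switch of fat cell formation. In the mammary gland, EGF receptor ligands are known for ductal growth, while PDGF receptors are known as receptors of mesenchymal cells.

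Library totals were 14659987 to 17249199 counts. Cdh1, the E-cadherin gene, had 46 and 67 counts in MTΔECad cells with rosiglitazone and 37 and 36 in MTΔECad control cells. It had 274 and 258 counts with BMP2+MEKi, 196 and 200 with MEKi and 584 and 507 in Py2T-LT control cells. A count over the whole gene does not tell which exons remain. CPM is the read count scaled to library size by the TMM method. All 7 mesenchymal markers examined reached 1 CPM in both libraries of every group, and none of 5 endothelial markers did so in any group. The endothelial marker Tek averaged 1.09 ± 0.23 CPM in Py2T-LT control cells (SD, n = 2). Of 6 haematopoietic markers, 3 were among the genes counted, and 1 of these reached 1 CPM in both libraries of every group. The summed level of 6 adipocyte markers was 1866 to 2054 CPM with rosiglitazone and 83.7 to 88.4 CPM in MTΔECad control cells, and 424 to 466 CPM with BMP2+MEKi, 231 to 263 CPM with MEKi and 6.35 to 11.1 CPM in Py2T-LT control cells. These are bulk libraries, in which fewer cells that transcribe a gene and less RNA per cell cannot be told apart. The main p-values rest on the spread between 2 independent experiments per group, pooled over all 5 groups.

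A gene is called expressed here when both libraries of a group reached 1 CPM, and undetected when neither exceeded 3 counts, which is at most 0.209 CPM. By this measure 27 of the 38 genes were expressed in all 5 groups. Fgf10, Fgf18, Mst1r, Kdr and Kit were expressed in none. Mst1r, the receptor for macrophage-stimulating protein, Kdr, the main VEGF receptor, and Kit, the stem cell factor receptor, never exceeded 0.323 CPM in a library. Fgf10 and Fgf18 never exceeded 0.452 CPM. The genes whose expression depended on the group were Erbb3, Ereg, Tgfa, Fgfr3, Fgf1 and Fgf7. MTΔECad cells with rosiglitazone expressed 27 of the 38 genes and MTΔECad control cells 28. Py2T-LT cells expressed 31 with BMP2+MEKi, 32 with MEKi and 30 as controls.

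**Figure D1:**
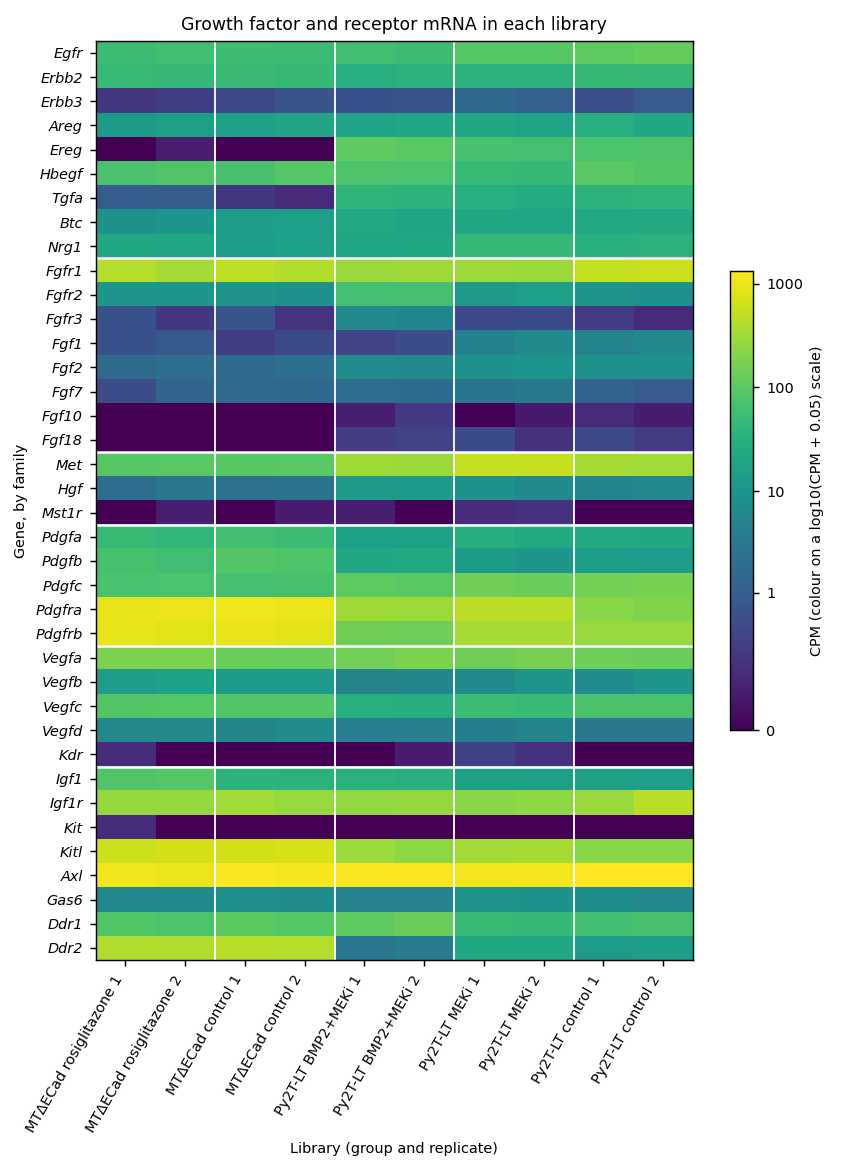
Colour shows CPM in each of the 10 libraries (columns, by group and replicate) for the 38 genes (rows, by family), on a log10 scale after adding 0.05 CPM. The libraries of a group look alike, and the Ereg, Tgfa and Ddr2 rows differ plainly between the lines.

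Some members are neighbours on chromosome 5 of GRCm38 (GENCODE M21) and yet differed in level. Pdgfra at chr5:75151322-75198206 was at 190 CPM or more in each library, while Kit at chr5:75574987-75656722 and Kdr at chr5:75932827-75979072 were not expressed. The EGFR ligands Ereg at chr5:91074617-91093649, Areg at chr5:91139599-91148432 and Btc at chr5:91357261-91402994 also lie close together. MTΔECad cells expressed Areg and Btc, and had no more than 1 count of Ereg in any library.

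To set genes beside each other, CPM was divided by the kilobases of exon in each gene. On this scale Axl, the receptor for GAS6, was the most abundant receptor in each of the 5 groups, at 206 ± 9.2 CPM per kilobase with rosiglitazone (SD, n = 2), 239 ± 11.2 in MTΔECad control cells, 244 ± 8.79 with BMP2+MEKi, 221 ± 3.31 with MEKi and 262 ± 4.08 in Py2T-LT control cells. In MTΔECad cells the PDGF receptors followed, with Pdgfrb at 158 ± 9.79 CPM per kilobase with rosiglitazone and 163 ± 12.1 in controls, and Pdgfra at 97.3 ± 1.98 and 102 ± 2.81. The order below Axl was different in Py2T-LT cells, and it changed with treatment. Py2T-LT control cells had Fgfr1 at 56.7 ± 3.14, Pdgfrb at 50.6 ± 1.00 and Met at 42.8 ± 1.01 CPM per kilobase. With MEKi, Met came next after Axl at 70.7 ± 1.62 CPM per kilobase, ahead of Pdgfrb at 64.8 ± 0.414 and Pdgfra at 46.4 ± 0.0442. With BMP2+MEKi, Met was at 38.8 ± 2.07 CPM per kilobase, above Fgfr1 and Pdgfra, both at 30.4, whose library ranges overlapped. Divided by the longest transcript instead, Fgfr1 at 59.5 and Pdgfra at 44.5 came before Met at 43.8 CPM per kilobase with BMP2+MEKi, and Pdgfra at 68.1 before Pdgfrb at 65.5 with MEKi. Library ranges of neighbours in the order also overlapped for Ddr2 and Fgfr1 and for Ddr1 and Igf1r in MTΔECad cells, for Pdgfrb and Ddr1 and for Fgfr2 and Erbb2 with BMP2+MEKi, and for Igf1r and Pdgfra in Py2T-LT control cells.

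Among ligands, Kitl, the ligand of KIT, was highest per kilobase, at 110 ± 11.5 CPM per kilobase with rosiglitazone, 120 ± 5.97 in MTΔECad control cells, 45 ± 6.86 with BMP2+MEKi, 57.4 ± 2.7 with MEKi and 36.6 ± 0.177 in Py2T-LT control cells (SD, n = 2). With BMP2+MEKi the library ranges of Kitl and Vegfa overlapped. When CPM was divided by the longest transcript instead, Vegfa came first with BMP2+MEKi and Pdgfc in Py2T-LT control cells. Vegfa, the main angiogenic factor, and Vegfc, known for lymphatic vessel growth, were next to Kitl in MTΔECad cells. Vegfa stood at 41.9 ± 0.623 CPM per kilobase with rosiglitazone and 30.8 ± 1.12 in MTΔECad control cells, and Vegfc at 35.9 ± 0.797 and 35 ± 1.76. The most abundant ligand in these cells therefore had its receptor, Kit, at no more than 0.131 CPM in any library, and the VEGF receptor Kdr stood at no more than 0.323 CPM. Flt1, another receptor for VEGFA and not one of the 38 genes, averaged 12.9 ± 2.61 CPM with rosiglitazone, 14.2 ± 0.784 CPM in MTΔECad control cells, 9.79 ± 0.931 CPM with BMP2+MEKi, 4.59 ± 0.996 CPM with MEKi and 2.52 ± 0.595 CPM in Py2T-LT control cells. Flt4, a further VEGF receptor outside the 38 genes, was highest in Py2T-LT control cells, at no more than 0.5 CPM in a library.

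**Figure D2:**
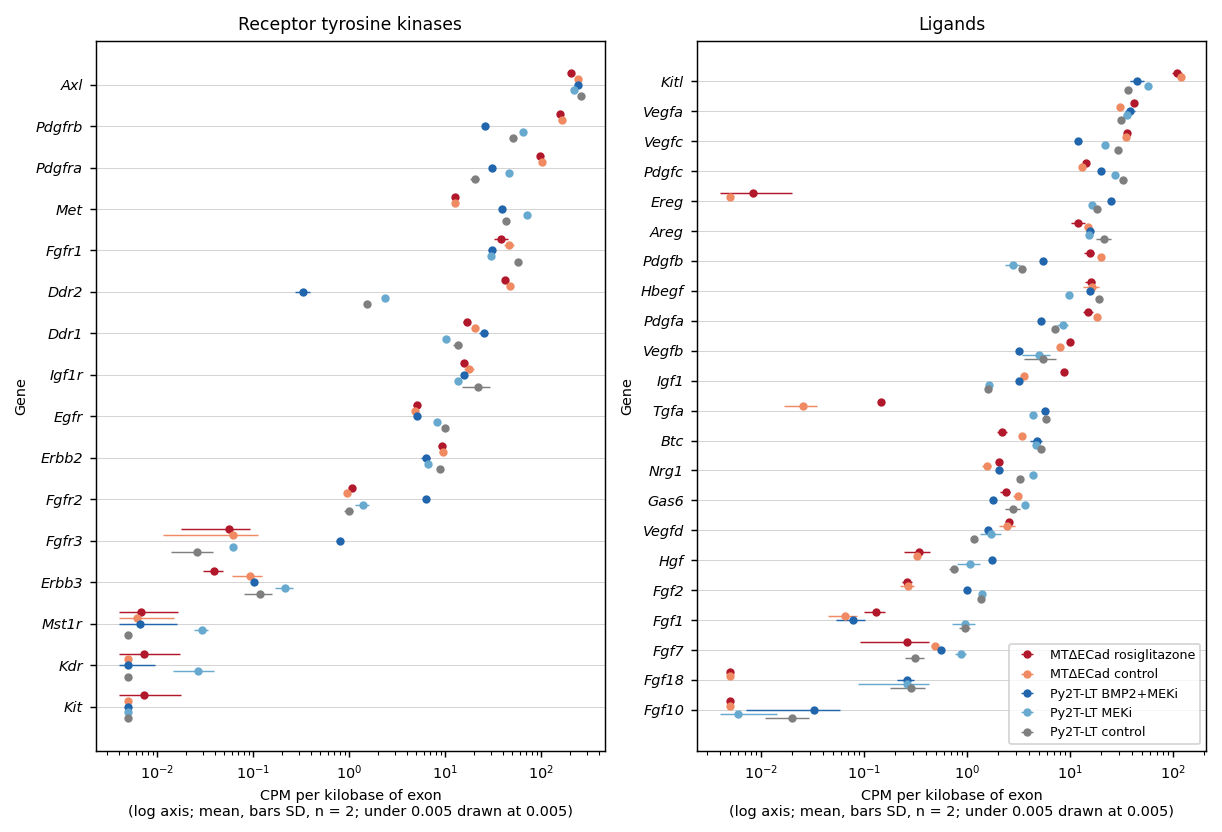
CPM per kilobase of exon on a log axis for the 16 receptors and the 22 ligands in the 5 groups, as means with SD (n = 2), with values under 0.005 drawn at 0.005 and bars stopped just below it. Axl is the highest receptor in each group, and the points for Ddr2, Ereg and Tgfa lie far apart between the lines.

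A ligand and receptor pair counted as present when the same group expressed both, over 28 textbook pairs. This says that both mRNAs were there, not that the proteins met. Counts over the whole gene also do not tell which splice forms of a receptor, such as FGFR2, were made. MTΔECad cells held 12 of 28 pairs with rosiglitazone and 13 as controls, and Py2T-LT cells held 16 with BMP2+MEKi, 18 with MEKi and 16 as controls. The 12 pairs present in all 5 groups were EGFR with amphiregulin (Areg), HB-EGF (Hbegf) or betacellulin (Btc), FGF2 with FGFR1 or FGFR2, HGF with MET, PDGF-A, PDGF-B or PDGF-C with PDGFRα, PDGF-B with PDGFRβ, IGF1 with its receptor, and GAS6 with AXL. Another 9 pairs were present in no group because Kdr, Kit, Fgf18 or Fgf10 was not expressed or, for FGF1 with FGFR3, because the genes were expressed in different groups. The other 7 depended on the group. EGFR with epiregulin (Ereg) or TGFα (Tgfa) was present in the Py2T-LT groups and in neither MTΔECad group. FGF1 with FGFR1 or FGFR2 was present with MEKi and in Py2T-LT control cells, and FGF2 with FGFR3 with BMP2+MEKi.

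Some pairs sat at the threshold. Fgf7, the keratinocyte growth factor, had 0.459 and 1.24 CPM with rosiglitazone and 1.67 and 1.5 CPM in MTΔECad control cells. It had 1.87 and 1.8 CPM with BMP2+MEKi, 2.58 and 3.07 with MEKi and 1.17 and 0.875 in Py2T-LT control cells, so its pair with FGFR2 was absent with rosiglitazone and in Py2T-LT controls because of 1 library each. Erbb3, a receptor for neuregulin 1, had 0.197 and 0.275 CPM with rosiglitazone and 0.418 and 0.689 CPM in MTΔECad control cells. In Py2T-LT cells Erbb3 had 0.603 and 0.64 CPM with BMP2+MEKi, 1.49 and 1.1 with MEKi and 0.555 and 0.875 as controls, and MEKi was the only group in which both libraries passed 1 CPM. No difference in Erbb3 passed the test in any of the 5 comparisons.

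**Figure D3:**
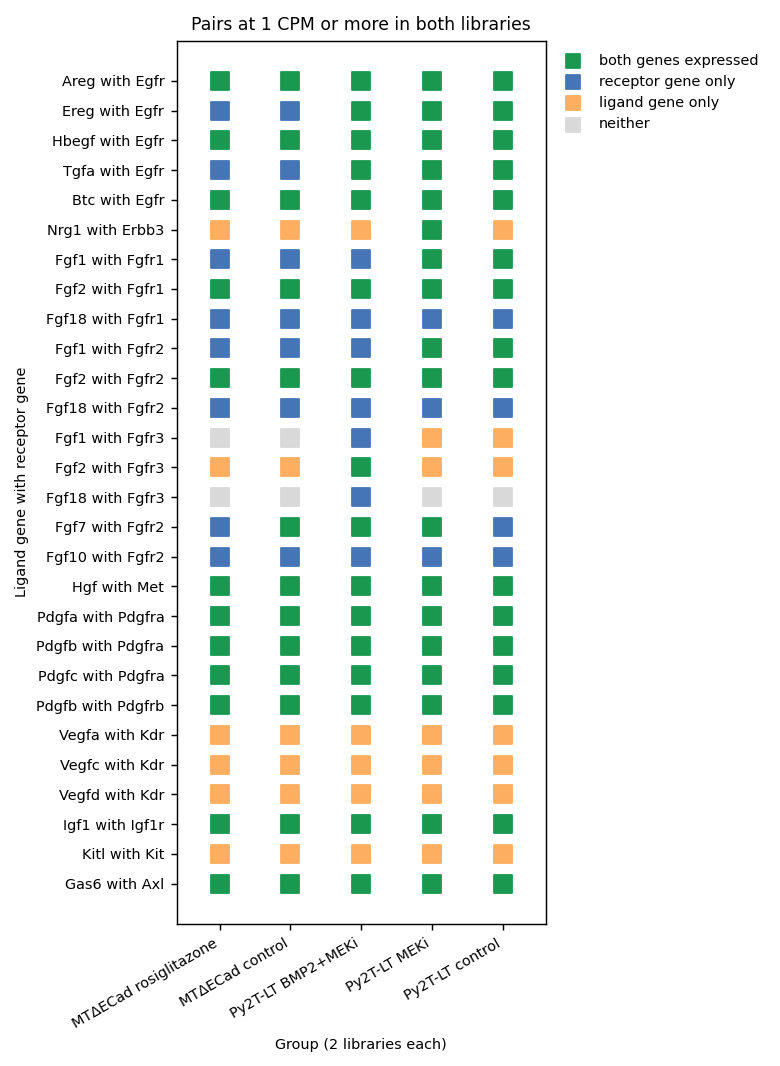
The 28 ligand and receptor pairs (rows) in the 5 groups (columns), in green where both genes reached 1 CPM in both libraries, blue where the receptor gene alone did, orange where the ligand gene alone did and grey where neither did. The number of pairs present is 12 and 13 in the MTΔECad groups and 16, 18 and 16 in the Py2T-LT groups.

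With rosiglitazone, several ligands of MTΔECad cells passed the test and no receptor did. Igf1, which encodes insulin-like growth factor 1, rose more than any other member with at least 1 CPM in both groups, and Vegfa, Nrg1 and Tgfa rose with it, while Btc and Pdgfb fell. Of the 33 members tested, 4 rose and 2 fell, against 7.95% and 5.26% of all 13149 genes tested by edgeR at an adjusted p of 0.05. The members called were 18.2% of those tested, against 13.2% of all genes, so their share was near the background. All 6 calls were among the 20 ligands tested, and 2 of them, against 3.11% of all genes, reached 1 on the log2 scale. Whether the calls split between ligands and receptors beyond the background was not tested. None of the 13 receptors tested was called, although Fgfr1, Axl and Ddr1 passed under some of the alternatives (lowest edgeR or DESeq2 adjusted p = 0.0065, 0.032 and 0.026). The members' median log2 fold change of -0.04 was close to the -0.02 of all genes.

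Igf1 had 83.9 and 89 CPM with rosiglitazone and 36.1 and 34.7 CPM in MTΔECad control cells. The groups did not overlap, and the log2 fold change was 1.29 ± 0.09 (SE), edgeR adjusted p = 1.2e-09. Igf1r, the receptor it binds, had 267 and 264 CPM with rosiglitazone and 326 and 275 CPM in controls, with adjusted p = 0.72 by edgeR. Tgfa, an EGFR ligand, had 0.918 and 0.963 CPM with rosiglitazone and 0.209 and 0.125 CPM in MTΔECad control cells. Its control libraries held so few reads that the ratio of 5.70 had a 95% interval from counting error of 2.17 to 18.9 (log2 fold change 2.46 ± 0.48 (SE), edgeR adjusted p = 0.0009). Both rosiglitazone libraries stayed just under 1 CPM, so the pair with EGFR was still not counted as present.

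Vegfa had 181 and 178 CPM with rosiglitazone and 136 and 129 CPM in MTΔECad control cells, a log2 fold change of 0.44 ± 0.09 (SE), edgeR adjusted p = 0.00092. Btc, an EGFR ligand, had 9.12 and 10.7 CPM with rosiglitazone and 15.2 and 15.8 CPM in controls, and its log2 fold change was -0.65 ± 0.14 (SE), edgeR adjusted p = 0.0021. Neither gene's groups overlapped. Nrg1, the neuregulin that binds ERBB3, had 21.7 and 20.9 CPM with rosiglitazone and 15.1 and 17.3 in controls (0.39 on the log2 scale, edgeR adjusted p = 0.025). Pdgfb had 69.8 and 59.1 CPM with rosiglitazone and 86.7 and 81.6 in controls (-0.38 on the log2 scale, edgeR adjusted p = 0.015). The Nrg1 call was lost with DESeq2 (adjusted p = 0.057) and without rosiglitazone replicate 1 or 2 or control replicate 1 (adjusted p = 0.14, 0.065 and 0.26), and the Pdgfb call without rosiglitazone replicate 2 or control replicate 1 (adjusted p = 0.21 and 0.14). The number of members that fell was 5 without rosiglitazone replicate 1 and 1 without control replicate 1. The 6 adipocyte markers were higher with rosiglitazone, at the summed levels given above. The summed level of 7 epithelial markers was 360 to 394 CPM with rosiglitazone and 273 to 285 CPM in controls, that of 7 mesenchymal markers was 11416 to 11977 CPM with rosiglitazone and 14997 to 17767 CPM in controls, and that of 5 pericyte and smooth muscle markers was 9.31 to 9.9 CPM with rosiglitazone and 15.1 to 20.5 CPM in controls. In each of these groups only 3 of the 7 epithelial markers reached 1 CPM in both libraries. Cldn4 and Esrp1 were undetected in both groups, and Epcam in controls. Of the pericyte and smooth muscle markers, only 1 reached 1 CPM in both libraries with rosiglitazone, and only 1 in controls. The part of these 4 marker lists in the differences was not tested.

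The 300 bases around an annotated start of Igf1 and of Tgfa are shown because these ligands had the largest called log2 fold changes with rosiglitazone. They run from 250 bases before to 50 after the start, 5′ to 3′ on the gene's strand, from RefSeq on GRCm38.p6. Capitals mark matches on either strand to GGCGCC, a GC-rich motif bound by SMAD proteins, or to the direct repeat bound by PPARγ with its partner RXR. They also mark matches on either strand to TGANTCA, a loose form of the AP-1 motif in which N can be any base. The Igf1 window lies on the plus strand at chr10:87860861-87861160 and the Tgfa window on the plus strand at chr6:86194972-86195271. The Igf1 gene begins upstream of its window, at chr10:87858265, and that start is not shown. The Tgfa gene begins at chr6:86195038, within its window.
Igf1: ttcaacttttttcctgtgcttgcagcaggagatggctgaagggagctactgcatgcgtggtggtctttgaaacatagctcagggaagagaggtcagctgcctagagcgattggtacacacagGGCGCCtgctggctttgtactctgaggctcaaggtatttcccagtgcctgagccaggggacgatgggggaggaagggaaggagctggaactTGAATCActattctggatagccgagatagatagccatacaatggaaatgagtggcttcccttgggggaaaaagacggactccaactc
Tgfa: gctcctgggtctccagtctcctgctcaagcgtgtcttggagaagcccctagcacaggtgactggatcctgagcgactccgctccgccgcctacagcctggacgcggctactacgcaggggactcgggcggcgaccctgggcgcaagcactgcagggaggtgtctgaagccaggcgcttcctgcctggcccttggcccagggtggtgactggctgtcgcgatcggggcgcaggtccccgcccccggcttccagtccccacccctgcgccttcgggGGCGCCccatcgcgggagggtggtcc
Igf1 held 1 GGCGCC and 1 TGANTCA, and Tgfa held 1 GGCGCC. Neither window held the PPARγ and RXR repeat, which occurs in 0.0396% of the 32851 promoters in the RefSeq table, against 11.9% for GGCGCC and 7.81% for TGANTCA. Promoters were found for 30 of the 38 members. Of their 39 start sites, 10 held GGCGCC, 3 held TGANTCA and none held the repeat.

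The number of members with a called change of at least 1 on the log2 scale was 17 between the lines, where 24.5% of all genes had one. It was 2 with rosiglitazone (3.11% of all genes), 2 with MEKi (3.86%), 7 with BMP2+MEKi against control cells (13.1%) and 8 with BMP2+MEKi against MEKi (11.9%). MTΔECad control cells had more PDGF receptor, PDGF-A, PDGF-B, DDR2 and KIT ligand mRNA than Py2T-LT control cells, and less mRNA of 4 of the 5 EGFR ligands (Ereg, Tgfa, Areg and Btc) and of MET, HGF, FGF1 and FGF2. In this comparison 11 members rose and 12 fell of 33 tested, against 29.3% and 31.7% of all genes tested by edgeR. The 69.7% of members called was close to the 61% of all genes. The median log2 fold change was -0.07 for the members and -0.03 for all genes. The EGF family had 6 of 9 members lower and none higher in MTΔECad cells. The summed level of 7 mesenchymal markers was 14997 to 17767 CPM in MTΔECad control cells and 8593 to 11342 CPM in Py2T-LT control cells, and that of 7 epithelial markers was 273 to 285 CPM in MTΔECad control cells and 633 to 682 CPM in Py2T-LT control cells, with Cldn4, Epcam and Esrp1 at the floor in MTΔECad cells and Esrp1 in Py2T-LT cells. The part of these markers in the differences was not tested.

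Ereg, the epiregulin gene, had 0 counts in both MTΔECad control libraries and 74.3 and 78.7 CPM in Py2T-LT control libraries, which is at least 386-fold lower in MTΔECad cells at a floor of 3 counts per library (edgeR adjusted p = 4.3e-18). Tgfa had 0.209 and 0.125 CPM in MTΔECad control cells and 36.5 and 39 CPM in Py2T-LT control cells, a ratio of 0.00436 with a 95% interval from counting error of 0.00141 to 0.0102 (edgeR adjusted p = 4.1e-17). Both lines expressed their receptor. Egfr had 56.4 and 54.8 CPM in MTΔECad control cells and 108 and 119 CPM in Py2T-LT control cells, a log2 fold change of -1.03 ± 0.09 (SE), edgeR adjusted p = 2.1e-09. Nrg1 had 15.1 and 17.3 CPM in MTΔECad control cells and 32.6 and 35.4 CPM in Py2T-LT control cells, a log2 fold change of -1.07 ± 0.11 (SE), edgeR adjusted p = 3.9e-08. Of the other EGFR ligands, Areg had 17.2 and 19 CPM in MTΔECad control cells and 29.3 and 22.9 CPM in Py2T-LT control cells, and Btc had 15.2 and 15.8 CPM in MTΔECad control cells and 23.6 and 23.6 CPM in Py2T-LT control cells. Both were lower in MTΔECad cells. Hbegf, with 68.6 and 89 CPM in MTΔECad control cells and 97.9 and 88.8 CPM in Py2T-LT control cells, overlapped between the lines. Erbb2, the receptor that pairs with other members of the EGF receptor family, had 52.3 and 46.4 CPM in MTΔECad control cells and 45.1 and 45.9 CPM in Py2T-LT control cells, with edgeR adjusted p = 0.33.

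The FGF and HGF genes that differed were lower in MTΔECad cells. Fgf1 had 0.278 and 0.438 CPM in MTΔECad control cells and 4.81 and 5.69 CPM in Py2T-LT control cells, a log2 fold change of -3.83 ± 0.37 (SE), edgeR adjusted p = 1.3e-08. Fgf2 had 1.6 and 2.00 CPM in MTΔECad control cells and 9.00 and 9.44 CPM in Py2T-LT control cells, a log2 fold change of -2.34 ± 0.20 (SE), edgeR adjusted p = 2.6e-09. Both encode FGFs that bind several FGF receptors. Fgfr1 had 494 and 416 CPM in MTΔECad control cells and 538 and 582 CPM in Py2T-LT control cells, a log2 fold change of -0.30 ± 0.10 (SE), edgeR adjusted p = 0.018. Met, the HGF receptor, had 95.1 and 98.1 CPM in MTΔECad control cells and 334 and 323 CPM in Py2T-LT control cells, a log2 fold change of -1.77 ± 0.07 (SE), edgeR adjusted p = 1.9e-14. Its ligand was lower in the same cells. Hgf had 2.23 and 2.44 CPM in MTΔECad control cells and 4.99 and 5.69 CPM in Py2T-LT control cells, a log2 fold change of -1.19 ± 0.24 (SE), edgeR adjusted p = 0.00027.

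The PDGF family was higher in MTΔECad cells except for Pdgfc. Pdgfra had 1047 and 1008 CPM in MTΔECad control cells and 221 and 190 CPM in Py2T-LT control cells, a log2 fold change of 2.32 ± 0.08 (SE), edgeR adjusted p = 7.3e-16. Pdgfrb had 939 and 845 CPM in MTΔECad control cells and 274 and 281 CPM in Py2T-LT control cells, a log2 fold change of 1.68 ± 0.08 (SE), edgeR adjusted p = 6.6e-14. Ligands of both receptors moved the same way. Pdgfb had 86.7 and 81.6 CPM in MTΔECad control cells and 14.9 and 13.6 CPM in Py2T-LT control cells, a log2 fold change of 2.56 ± 0.12 (SE), edgeR adjusted p = 8.1e-14. Pdgfa had 59.9 and 55 CPM in MTΔECad control cells and 23.7 and 21.4 CPM in Py2T-LT control cells, a log2 fold change of 1.35 ± 0.11 (SE), edgeR adjusted p = 1.4e-09, with 26.07% of its exon bases overlapping 6330403L08Rik on the other strand. Whether the authors' counting used strand is not given in the sources used here. Pdgfc had 66.3 and 67.5 CPM in MTΔECad control cells and 159 and 172 CPM in Py2T-LT control cells, a log2 fold change of -1.31 ± 0.08 (SE), edgeR adjusted p = 9.8e-12.

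Ddr2, a receptor for fibrillar collagen, was the receptor that separated the lines most. It had 438 and 431 CPM in MTΔECad control cells and 14.1 and 14.6 CPM in Py2T-LT control cells, a log2 fold change of 4.92 ± 0.09 (SE), edgeR adjusted p = 3.3e-20. Ddr1, the other collagen receptor, had 101 and 92.3 CPM in MTΔECad control cells and 60.1 and 69.2 CPM in Py2T-LT control cells, a log2 fold change of 0.58 ± 0.10 (SE), edgeR adjusted p = 2.6e-05. Kitl, Igf1 and Vegfd, ligands of the KIT, IGF1 and VEGF receptors, were also higher in MTΔECad cells. Kitl had 683 and 733 CPM in MTΔECad control cells and 217 and 216 CPM in Py2T-LT control cells, a log2 fold change of 1.71 ± 0.10 (SE), edgeR adjusted p = 5.8e-12. Igf1 had 36.1 and 34.7 CPM in MTΔECad control cells and 16.3 and 15.6 CPM in Py2T-LT control cells, a log2 fold change of 1.15 ± 0.10 (SE), edgeR adjusted p = 3.7e-09. Vegfd had 5.22 and 6.7 CPM in MTΔECad control cells and 2.83 and 2.75 CPM in Py2T-LT control cells, a log2 fold change of 1.10 ± 0.22 (SE), edgeR adjusted p = 0.00022. The libraries of the 2 lines overlapped for none of the Ddr, Kitl, Igf1 and Vegfd genes just given. Vegfa had 136 and 129 CPM in MTΔECad control cells and 139 and 131 CPM in Py2T-LT control cells, overlapped between the lines and did not pass (log2 fold change -0.03 ± 0.09 (SE), edgeR adjusted p = 0.79). Axl and Gas6 did not pass the test either (edgeR adjusted p = 0.11 and 0.52).

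Among the 23 calls between the lines, 19 held in each alternative. Areg was lost without Py2T-LT control replicate 1 (log2 fold change -0.34, adjusted p = 0.065 by edgeR), Fgfr1 without Py2T-LT control replicate 2 or MTΔECad control replicate 2 (-0.24 and -0.18), Vegfc without MTΔECad control replicate 2 (0.20), and Vegfb, whose log2 fold change was 0.56, without Py2T-LT control replicate 1 (0.25), MTΔECad control replicate 1 (0.54) or MTΔECad control replicate 2 (0.58). Vegfb reached 0.95 without Py2T-LT control replicate 2.

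**Figure D4:**
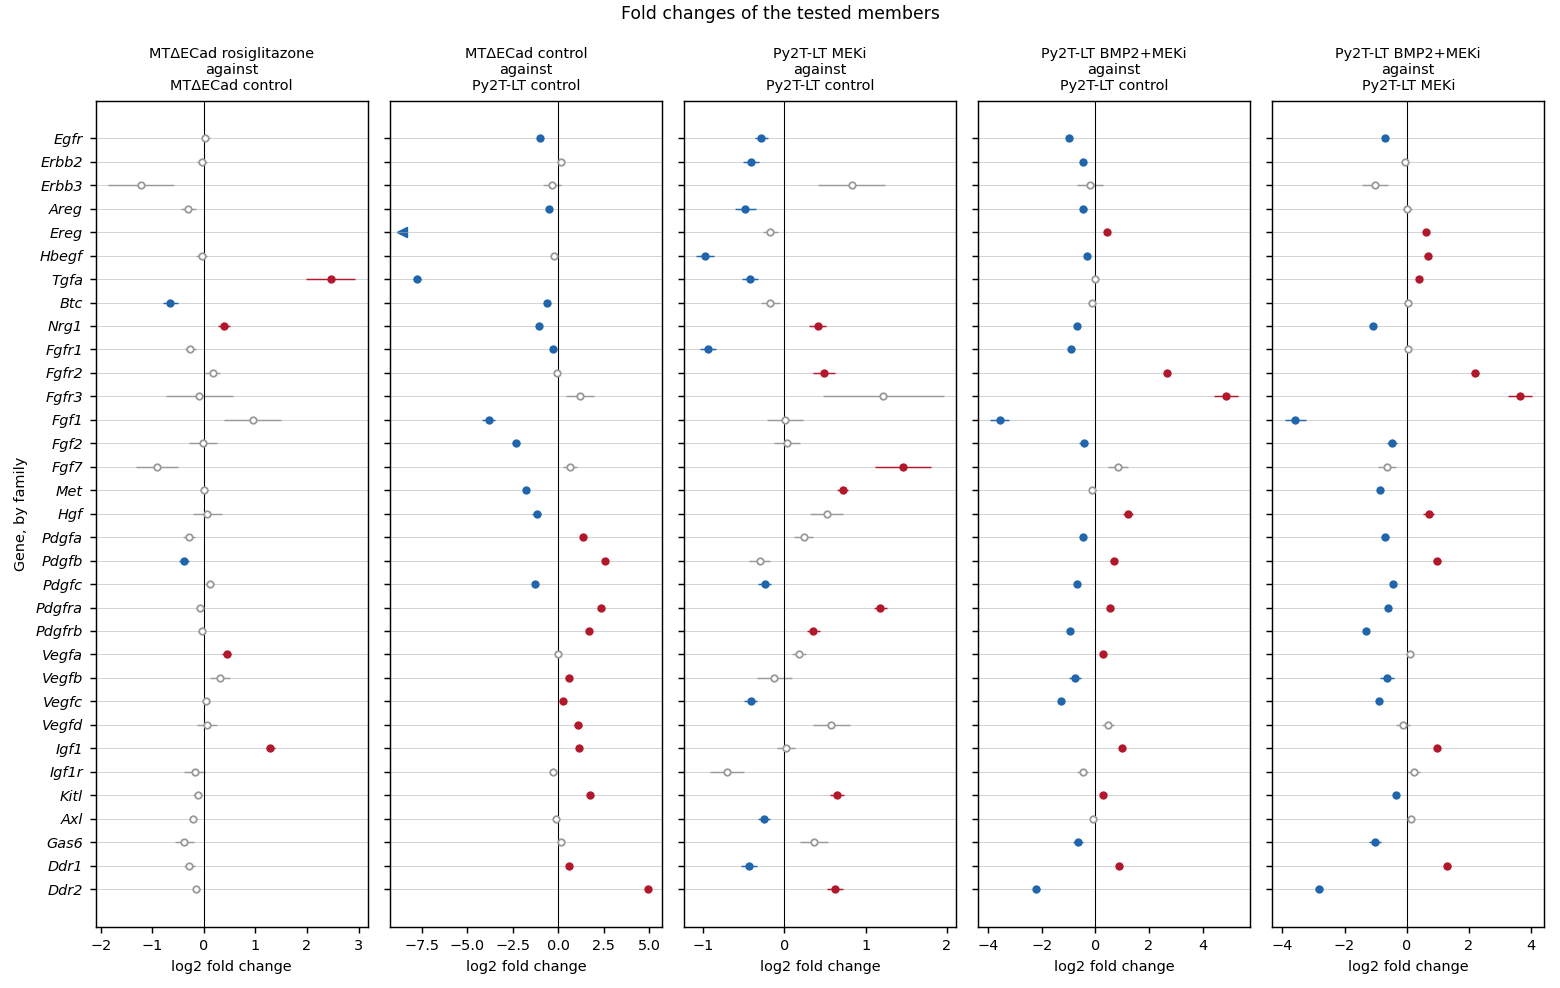
Log2 fold changes (edgeR, bars SE) of the tested members in the 5 comparisons, with filled points for an adjusted p of 0.05 or less, Ereg between the lines drawn as an arrow at its bound and left out where both groups are at the floor, and an x axis of its own in each panel. Rosiglitazone has 6 filled points, all ligands, where 13.2% of all genes were called. The line comparison has 23 (61% of all genes) and MEKi has 18 (16.5%). BMP2+MEKi has 25 against control cells (38.5%) and 23 against MEKi (37.3%).

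The MEK inhibitor alone raised Met, Pdgfra, Pdgfrb, Ddr2 and Fgfr2 among the receptors of Py2T-LT cells, and lowered Fgfr1, Egfr, Erbb2, Axl and Ddr1. Among the ligands, Hbegf fell most and Fgf7 rose most. Of 33 members tested, 8 rose and 10 fell, against 8.98% and 7.52% of all genes tested by edgeR. The members called were 54.5% of those tested, against 16.5% of all genes. The median log2 fold change was 0.02 for the members and 0.01 for all genes, and 2 members, against 3.86% of all genes, had called changes of at least 1 on the log2 scale.

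The adipocyte markers also stood higher with MEKi, and their part in these differences was not tested. The EGF family had most decreases, with 5 of 9 members lower and 1 higher. Hbegf had 49.5 and 45.8 CPM with MEKi and 97.9 and 88.8 CPM in Py2T-LT control cells, a log2 fold change of -0.97 ± 0.11 (SE), edgeR adjusted p = 4.3e-06. Areg had 19.6 and 17.9 CPM with MEKi and 29.3 and 22.9 CPM in controls (-0.48 on the log2 scale), and Tgfa had 29.7 and 26.9 CPM with MEKi and 36.5 and 39 CPM in controls (-0.42). Ereg, with 69.4 and 66.2 CPM with MEKi and 74.3 and 78.7 CPM in controls, did not pass (edgeR adjusted p = 0.23), nor did Btc, with 21.8 and 20.3 CPM with MEKi and 23.6 and 23.6 CPM in controls. Egfr, the receptor of these ligands, and Erbb2, which pairs with it, fell as well. Egfr had 94.3 and 92.7 CPM with MEKi and 108 and 119 CPM in controls (-0.28 on the log2 scale), and Erbb2 had 34.4 and 34.2 CPM with MEKi and 45.1 and 45.9 CPM in controls (-0.41). Nrg1 moved the other way, with 43.8 and 46.6 CPM with MEKi and 32.6 and 35.4 CPM in controls (0.41 on the log2 scale, edgeR adjusted p = 0.0065).

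The PDGF and HGF receptors rose. Pdgfra had 465 and 466 CPM with MEKi and 221 and 190 CPM in Py2T-LT control cells, a log2 fold change of 1.18 ± 0.08 (SE), edgeR adjusted p = 1.1e-09. Met had 534 and 552 CPM with MEKi and 334 and 323 CPM in controls, and its log2 fold change was 0.72 ± 0.07 (SE), edgeR adjusted p = 2.7e-07. Pdgfrb had 353 and 357 CPM with MEKi and 274 and 281 CPM in controls, and its log2 fold change was 0.36 ± 0.08 (SE), edgeR adjusted p = 0.0018. The libraries of treated and control cells were apart for all 3 receptors. Their ligands Hgf, Pdgfa and Pdgfb did not pass the test. Hgf had 9.11 and 6.35 CPM with MEKi and 4.99 and 5.69 CPM in controls, and its edgeR adjusted p was 0.082. Pdgfa had 29.1 and 24.3 CPM with MEKi and 23.7 and 21.4 CPM in controls, and Pdgfb had 13 and 10.2 CPM with MEKi and 14.9 and 13.6 CPM in controls. Pdgfc fell, with 144 and 137 CPM with MEKi and 159 and 172 CPM in controls (-0.24 on the log2 scale).

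FGF receptors moved in opposite directions. Fgfr1 had 301 and 285 CPM with MEKi and 538 and 582 CPM in Py2T-LT control cells, a log2 fold change of -0.94 ± 0.10 (SE), edgeR adjusted p = 4.9e-06. Fgfr2 had 12.6 and 16 CPM with MEKi and 11 and 9.5 CPM in controls, and its log2 fold change was 0.49 ± 0.13 (SE), edgeR adjusted p = 0.015. Fgf7 rose by 1.46 ± 0.34 (SE) on the log2 scale, edgeR adjusted p = 0.0039, at low levels, and lost its call without control replicate 2 (1.27, adjusted p = 0.053). Fgf1, with 4.33 and 6.19 CPM with MEKi and 4.81 and 5.69 CPM in controls, and Fgf2, with 9.18 and 9.64 CPM with MEKi and 9.00 and 9.44 CPM in controls, overlapped between the groups. The collagen receptors also moved apart, Ddr2 with 22.2 and 22 CPM with MEKi and 14.1 and 14.6 CPM in controls (0.62 on the log2 scale), and Ddr1 with 49.8 and 46.6 CPM with MEKi and 60.1 and 69.2 CPM in controls (-0.43). Kitl rose to 328 and 350 CPM with MEKi, against 217 and 216 CPM in controls (log2 fold change 0.65 ± 0.09 (SE), edgeR adjusted p = 5e-05), and Vegfc fell to 55.2 and 52.6 CPM, against 71.8 and 71.9 CPM in controls (log2 fold change -0.41 ± 0.08 (SE), edgeR adjusted p = 0.001). Axl fell to 1125 and 1102 CPM with MEKi, against 1334 and 1305 CPM in controls (-0.25 on the log2 scale).

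Of the 18 MEKi calls, 9 held in each alternative: Hbegf, Fgfr1, Pdgfra, Met, Pdgfrb, Kitl, Ddr2, Erbb2 and Vegfc. Without MEKi replicate 2 the calls of Egfr, Areg, Tgfa, Nrg1, Fgfr2, Pdgfc, Axl and Ddr1 were lost, and without Py2T-LT control replicate 2 those of Egfr, Tgfa, Fgfr2, Fgf7, Pdgfc, Axl and Ddr1. Areg and Nrg1 were also lost without control replicate 1, as was Axl, and Egfr, Pdgfc and Axl without MEKi replicate 1. Fgfr2 and Pdgfc were lost with the compared groups fitted alone, and Egfr and Pdgfc with DESeq2. Areg stood at -0.29 without control replicate 1, and Fgfr2 at 0.30 without MEKi replicate 2. The number of members that fell was 4 without MEKi replicate 2 and 6 without control replicate 2. Igf1r was far apart in the controls. It had 220 and 237 CPM with MEKi and 285 and 456 CPM in controls, and its log2 fold change of -0.70 ± 0.21 (SE), edgeR adjusted p = 0.084, passed the threshold with DESeq2 (-0.70, adjusted p = 0.023), without the count filter (-0.69, adjusted p = 3.2e-15), without control replicate 1 (-1.0, adjusted p = 5.7e-08) and without control replicate 2 (-0.32, adjusted p = 0.039).

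With BMP2 and the MEK inhibitor, Fgfr2, Fgfr3, Hgf, Igf1, Ddr1 and Pdgfb rose in Py2T-LT cells, and Fgf1, Ddr2, Vegfc, Pdgfrb, Egfr and Nrg1 fell. Each of these changes passed the test both against control cells and against MEKi. Against control cells, 10 of the 33 members tested rose and 15 fell, against 19.1% and 19.4% of all genes tested by edgeR. The members called were 75.8% of those tested, against 38.5% of all genes, with a median log2 fold change of -0.20 for the members and 0.00 for all genes. Against MEKi, 9 rose and 14 fell, against 17.9% and 19.4% of all genes tested by edgeR. The members called were 69.7% of those tested, against 37.3% of all genes, with medians of -0.11 and 0.01. The 2 comparisons share the BMP2+MEKi libraries, so their values are given side by side. The summed level of 7 epithelial markers was 218 to 234 CPM with BMP2+MEKi, 573 to 656 CPM with MEKi and 633 to 682 CPM in control cells, and that of 5 pericyte and smooth muscle markers was 11.9 to 16 CPM with BMP2+MEKi, 1.04 to 1.42 CPM with MEKi and 0.986 to 1.5 CPM in control cells. Of the epithelial markers, 5 of 7 reached 1 CPM in both libraries of each of these groups, and Esrp1 was at the floor in each. The sum does not give the direction of each marker. The E-cadherin gene Cdh1, at the counts given above, was higher with BMP2+MEKi than with MEKi and lower than in control cells. Of the pericyte and smooth muscle markers, only 1 reached 1 CPM in both libraries with BMP2+MEKi, and none did with MEKi or in control cells. The adipocyte markers were also higher with BMP2+MEKi, at the summed levels given above. The part of these 3 marker lists in the differences was not tested.

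Fgfr2 had 64.1 and 66.6 CPM with BMP2+MEKi, 12.6 and 16 with MEKi and 11 and 9.5 in Py2T-LT control cells. The log2 fold change was 2.67 ± 0.12 (SE), edgeR adjusted p = 4.1e-13, against control cells and 2.19 ± 0.12 (SE), edgeR adjusted p = 5.6e-12, against MEKi. Fgfr3 had 6.03 and 5.35 CPM with BMP2+MEKi, 0.452 and 0.438 with MEKi and 0.246 and 0.125 in control cells. The groups without BMP2 lay near the detection floor, and the ratio to control cells was 30.4 with a 95% interval from counting error of 13.7 to 84.0 (edgeR adjusted p = 1.8e-08). Against MEKi the log2 fold change of Fgfr3 was 3.65 ± 0.38 (SE), edgeR adjusted p = 9.7e-08. Of the exon bases of Fgfr3, 13.94% overlap G630022F23Rik on the other strand. Fgfr1 was lower than in control cells, at 284 and 315 CPM with BMP2+MEKi (log2 fold change -0.90 ± 0.10 (SE), edgeR adjusted p = 1.7e-06), and did not pass the test against MEKi (log2 fold change 0.03 ± 0.10 (SE), edgeR adjusted p = 0.83).

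The start regions of Fgfr2 and Fgfr3 are shown because these receptors rose together with BMP2+MEKi, with the same window, source and capitals as above. Fgfr2 lies on the minus strand at chr7:130266759-130267058, and the start sites of Fgfr3 on the plus strand at chr5:33721474-33721773 and chr5:33722056-33722355.
Fgfr2: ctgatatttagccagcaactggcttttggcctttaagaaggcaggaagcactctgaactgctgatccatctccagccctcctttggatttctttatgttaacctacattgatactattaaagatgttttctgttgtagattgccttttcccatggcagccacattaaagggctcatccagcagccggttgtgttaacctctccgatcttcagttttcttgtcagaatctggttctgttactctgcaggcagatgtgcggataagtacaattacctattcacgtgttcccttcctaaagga
Fgfr3 start 1: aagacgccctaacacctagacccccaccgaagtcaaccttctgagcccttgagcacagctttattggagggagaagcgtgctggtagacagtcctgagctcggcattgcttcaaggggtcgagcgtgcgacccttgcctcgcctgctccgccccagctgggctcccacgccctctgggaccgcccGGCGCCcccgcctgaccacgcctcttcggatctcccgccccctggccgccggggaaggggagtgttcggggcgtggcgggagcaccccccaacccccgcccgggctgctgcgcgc
Fgfr3 start 2: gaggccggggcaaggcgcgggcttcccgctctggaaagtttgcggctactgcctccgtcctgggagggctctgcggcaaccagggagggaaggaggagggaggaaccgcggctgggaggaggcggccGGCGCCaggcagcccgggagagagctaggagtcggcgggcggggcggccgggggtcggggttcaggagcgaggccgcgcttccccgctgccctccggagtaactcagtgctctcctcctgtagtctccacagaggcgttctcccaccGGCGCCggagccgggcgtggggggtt
GGCGCC occurred 1 time at the upstream start of Fgfr3, 2 times at the downstream start, and not in the Fgfr2 window. TGANTCA and the PPARγ and RXR repeat were in none of the 3 windows. These matches describe the letters only.

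Fgf1 fell to 0.335 and 0.523 CPM with BMP2+MEKi, against 4.33 and 6.19 CPM with MEKi and 4.81 and 5.69 CPM in control cells, and its pairs with FGFR1 and FGFR2 were no longer present. The log2 fold change was -3.57 ± 0.35 (SE), edgeR adjusted p = 4.1e-08, against control cells and -3.58 (edgeR adjusted p = 3.7e-08) against MEKi. Fgf2 had 6.96 and 6.63 CPM with BMP2+MEKi, 9.18 and 9.64 with MEKi and 9.00 and 9.44 in control cells, and fell by 0.44 on the log2 scale against control cells. Hgf had 12.1 and 12.9 CPM with BMP2+MEKi, 9.11 and 6.35 with MEKi and 4.99 and 5.69 in control cells. It rose by 1.23 ± 0.19 (SE) on the log2 scale, edgeR adjusted p = 2.1e-05, against control cells and by 0.71 ± 0.18 (SE) on the log2 scale, edgeR adjusted p = 0.0038, against MEKi. Its receptor Met had 309 and 287 CPM with BMP2+MEKi, 534 and 552 with MEKi and 334 and 323 in control cells. Met was thus lower than with MEKi (log2 fold change -0.87 ± 0.07 (SE), edgeR adjusted p = 3.3e-09) and did not pass the test against control cells (edgeR adjusted p = 0.13). Of the exon bases of Hgf, 6.74% overlap Gm43489 on the same strand. Of those of Fgf2, 9.44% overlap Nudt6 on the other strand.

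**Figure D5:**
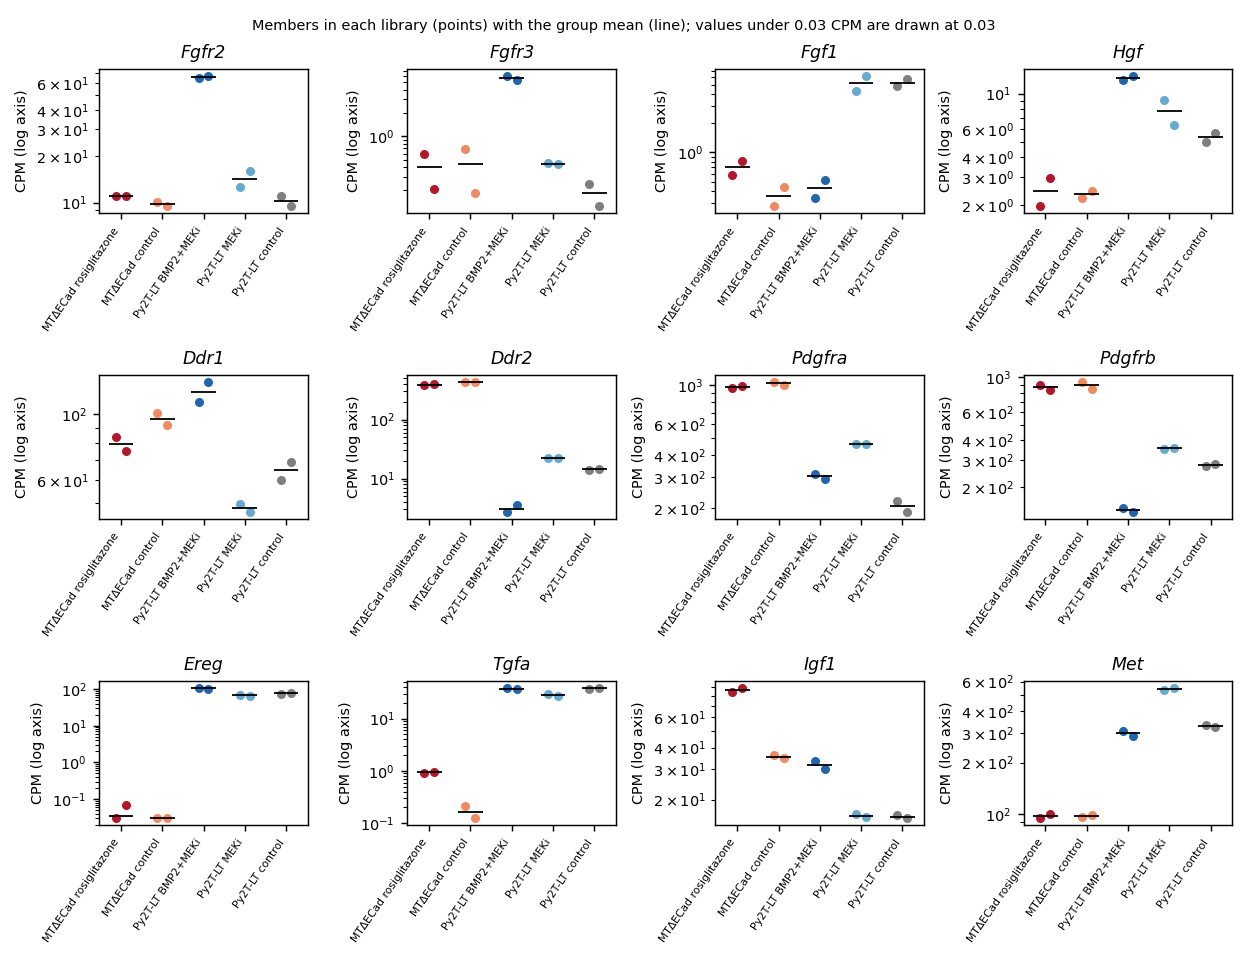
CPM on a log axis in each library (points) with the group mean (line) for Fgfr2, Fgfr3, Fgf1, Hgf, Ddr1, Ddr2, Pdgfra, Pdgfrb, Ereg, Tgfa, Igf1 and Met, with values under 0.03 CPM drawn at 0.03. Fgfr2 and Fgfr3 stand high and Ddr2 and Fgf1 low with BMP2+MEKi among the Py2T-LT groups, and Igf1 is highest in MTΔECad cells with rosiglitazone.

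The collagen receptors moved in opposite directions. Ddr1 had 110 and 129 CPM with BMP2+MEKi, 49.8 and 46.6 with MEKi and 60.1 and 69.2 in control cells, and rose by 0.89 ± 0.10 (SE) on the log2 scale, edgeR adjusted p = 1.7e-07, against control cells and by 1.31 ± 0.10 (SE) on the log2 scale, edgeR adjusted p = 6.3e-10, against MEKi. Ddr2 had 2.68 and 3.49 CPM with BMP2+MEKi, 22.2 and 22 with MEKi and 14.1 and 14.6 in control cells. Its log2 fold change was -2.21 ± 0.13 (SE), edgeR adjusted p = 1.7e-11, against control cells and -2.82 ± 0.12 (SE), edgeR adjusted p = 2.6e-13, against MEKi. No library of one group overlapped another in either gene.

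Of the PDGF receptors, Pdgfrb fell and Pdgfra took a middle place. Pdgfrb had 147 and 139 CPM with BMP2+MEKi, 353 and 357 with MEKi and 274 and 281 in control cells, with log2 fold changes of -0.96 against control cells and -1.31 ± 0.08 (SE), edgeR adjusted p = 1.8e-11, against MEKi. Pdgfra had 315 and 294 CPM with BMP2+MEKi, 465 and 466 with MEKi and 221 and 190 in control cells, so it was higher than in control cells (log2 fold change 0.56 ± 0.08 (SE), edgeR adjusted p = 5.1e-06) and lower than with MEKi (log2 fold change -0.61 ± 0.08 (SE), edgeR adjusted p = 1.6e-06). The ligands also differed in direction. Pdgfb had 21.7 and 24 CPM with BMP2+MEKi, 13 and 10.2 with MEKi and 14.9 and 13.6 in control cells and rose against both, by 0.68 against control cells and 0.98 against MEKi on the log2 scale. Pdgfa had 16.4 and 16.3 CPM with BMP2+MEKi, 29.1 and 24.3 with MEKi and 23.7 and 21.4 in control cells and fell against both. Pdgfc had 108 and 97.7 CPM with BMP2+MEKi, 144 and 137 with MEKi and 159 and 172 in control cells and fell against both.

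In the EGF family, Egfr had 60.5 and 54.6 CPM with BMP2+MEKi, 94.3 and 92.7 with MEKi and 108 and 119 in control cells, with log2 fold changes of -0.98 against control cells and -0.70 against MEKi. Nrg1 had 20.3 and 21.9 CPM with BMP2+MEKi, 43.8 and 46.6 with MEKi and 32.6 and 35.4 in control cells, with log2 fold changes of -0.69 against control cells and -1.10 ± 0.11 (SE), edgeR adjusted p = 3.1e-08, against MEKi. Some EGFR ligands went the other way. Ereg had 109 and 99.4 CPM with BMP2+MEKi, 69.4 and 66.2 with MEKi and 74.3 and 78.7 in control cells, and rose by 0.44 ± 0.09 (SE) on the log2 scale, edgeR adjusted p = 0.00052, against control cells and by 0.62 ± 0.09 (SE) on the log2 scale, edgeR adjusted p = 1.5e-05, against MEKi. Hbegf had 77.1 and 74.3 CPM with BMP2+MEKi, 49.5 and 45.8 with MEKi and 97.9 and 88.8 in control cells, and rose against MEKi (log2 fold change 0.67 ± 0.11 (SE), edgeR adjusted p = 9e-05) while it was lower than in control cells (-0.30 on the log2 scale, edgeR adjusted p = 0.034). Tgfa had 38 and 36.7 CPM with BMP2+MEKi, 29.7 and 26.9 with MEKi and 36.5 and 39 in control cells, and rose against MEKi by 0.40 on the log2 scale. Areg had 18 and 19.9 CPM and Btc 23.6 and 19.5 CPM with BMP2+MEKi, and neither differed from MEKi by the test (edgeR adjusted p = 0.94 and 0.88).

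Igf1 rose in Py2T-LT cells too, with 33.6 and 30.2 CPM with BMP2+MEKi, 16.4 and 15.9 with MEKi and 16.3 and 15.6 in control cells. Its log2 fold change was 1.00 ± 0.10 (SE), edgeR adjusted p = 7.8e-08, against control cells and 0.98 ± 0.10 (SE), edgeR adjusted p = 1e-07, against MEKi. Igf1r had 260 and 271 CPM with BMP2+MEKi, and its difference from control cells passed only without control replicate 1 or without the count filter (-0.78, adjusted p = 6.1e-07, and -0.48, adjusted p = 6.5e-08). Vegfc fell to 30.4 and 28.1 CPM with BMP2+MEKi, against 55.2 and 52.6 CPM with MEKi and 71.8 and 71.9 CPM in control cells (log2 fold change -1.30 ± 0.09 (SE), edgeR adjusted p = 1.1e-10, against control cells). Gas6, the ligand of AXL, had 4.55 and 4.59 CPM with BMP2+MEKi, 9.69 and 8.93 with MEKi and 8.07 and 6.31 in control cells, and was lower than with MEKi (log2 fold change -1.02 ± 0.18 (SE), edgeR adjusted p = 9.3e-05). Axl had 1197 and 1259 CPM with BMP2+MEKi and passed neither test (edgeR adjusted p = 0.27 against control cells and 0.13 against MEKi). Vegfa rose (0.30 on the log2 scale) and Erbb2 (-0.48) and Vegfb (-0.75) fell against control cells. Kitl had 295 and 237 CPM with BMP2+MEKi, above control cells (0.30 on the log2 scale) and below MEKi (-0.35).

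Against control cells 18 of 25 calls held in each alternative, and against MEKi 18 of 23. Against control cells the calls lost were Areg (without BMP2+MEKi replicate 1 or control replicate 1, -0.41 and -0.27), Hbegf (without either BMP2+MEKi library or control replicate 1), Fgf2 (without any of the 4 libraries and with DESeq2), Vegfa (without BMP2+MEKi replicate 2, 0.17, or control replicate 2, 0.26), Vegfb (without either BMP2+MEKi library or control replicate 2, the last at -0.36), Kitl (without BMP2+MEKi replicate 1, 0.12, or control replicate 2, 0.29) and Gas6 (without control replicate 1, -0.46). Against MEKi they were Tgfa and Hgf (without MEKi replicate 2, 0.33 and 0.46), Fgf2 (without any of the 4 libraries and with DESeq2), Vegfb (without either BMP2+MEKi library or MEKi replicate 2, the last at -0.27) and Kitl (without BMP2+MEKi replicate 2 or MEKi replicate 2, -0.20 and -0.30).

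Around these genes lie 130 others of the same pathways in 6 lists: further ligands, further receptor tyrosine kinases, coreceptors and binding proteins, proteases that release ligands, the RAS and kinase cascade, and negative regulators of receptors. Of them 105 were tested. With rosiglitazone 10 of the 105 rose and 11 fell in MTΔECad cells, against 7.95% and 5.26% of all genes tested, and 5 fell without rosiglitazone replicate 2 or without control replicate 1. Adam12, a protease that sheds EGFR ligands, averaged 47.9 ± 1.57 CPM with rosiglitazone and 5.77 ± 0.686 CPM in controls (SD, n = 2; log2 fold change 3.05 ± 0.14, edgeR adjusted p = 6.6e-13). The rise was not particular to rosiglitazone. In Py2T-LT cells Adam12 averaged 5.79 ± 0.59 CPM with MEKi, 13.3 ± 0.0874 CPM with BMP2+MEKi and 1.02 ± 0.23 CPM in controls. Both treatments passed the test against control cells (log2 fold changes 2.48 and 3.68). The insulin receptor substrates rose, with Irs1 at 246 ± 0.393 CPM with rosiglitazone and 121 ± 8.94 CPM in controls, and Irs2 at 40.3 ± 3.97 CPM with rosiglitazone and 19.3 ± 2.61 CPM in controls. They carry the signal of the IGF1 receptor. Nrp1, a coreceptor of VEGF, averaged 559 ± 5.85 CPM with rosiglitazone and 340 ± 5.45 CPM in controls. In MTΔECad control cells 34 of these genes were higher and 49 lower than in Py2T-LT control cells, against 29.3% and 31.7% of all genes tested. Igf2, the second IGF ligand, averaged 93.0 ± 16.7 CPM in MTΔECad control cells and 1.46 ± 0.146 CPM in Py2T-LT control cells, and Grb14, an adaptor that inhibits the insulin receptor, 190 ± 4.6 CPM in MTΔECad control cells and 0.747 ± 0.446 CPM in Py2T-LT control cells.

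With MEKi 15 of these genes rose and 26 fell, against 8.98% and 7.52% of all genes tested, and 16 fell without MEKi replicate 2. Igf2 averaged 16.9 ± 4.74 CPM with MEKi and 1.46 ± 0.146 CPM in control cells (log2 fold change 3.52 ± 0.34, edgeR adjusted p = 0.00014), and Plau, the protease urokinase, 36.1 ± 3.46 CPM with MEKi and 66.3 ± 2.19 CPM in controls. With BMP2+MEKi 29 rose and 28 fell against control cells, where 19.1% and 19.4% of all genes did, and 39 rose and 23 fell against MEKi, where 17.9% and 19.4% did. Igf2 averaged 41.5 ± 7.83 CPM with BMP2+MEKi, 1.30 ± 0.21 higher than with MEKi on the log2 scale (edgeR adjusted p = 0.0012). Adam10, the main sheddase of betacellulin, averaged 523 ± 68.2 CPM with BMP2+MEKi, 200 ± 2.72 CPM with MEKi and 211 ± 22.5 CPM in controls. Lrig1, which promotes the breakdown of EGF receptors, averaged 216 ± 12.4 CPM with BMP2+MEKi, 469 ± 20.3 CPM with MEKi and 500 ± 7.61 CPM in controls. Ret, the receptor for GDNF-family ligands, averaged 23.7 ± 3.80 CPM with BMP2+MEKi, 6.13 ± 0.166 CPM with MEKi and 7.01 ± 0.245 CPM in controls. Adam10, Lrig1 and Ret passed the test both against control cells and against MEKi.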

How the data were processed

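The authors' deposited table gives unnormalised counts of reads, as whole numbers, for 18103 genes by NCBI identifier in 10 libraries. Reads were aligned with STAR to mm10, per the submitters' processing notes. The counting tool, its use of strand and its handling of reads shared between overlapping genes are not given in the sources. Per the labels' protocols, RNA came from 2 independent experiments and libraries were made with a stranded kit. Identifiers were matched to RefSeq symbols on GRCm38.p6 for 18057 genes, and each of the 38 members had a row and an exon length from GENCODE M21.

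Counts were tested in R 4.3.3 with edgeR 4.0.16 (quasi-likelihood test, robust, TMM scaling, filterByExpr), with a mean per group over all 10 libraries, which leaves 5 residual degrees of freedom. Benjamini-Hochberg adjustment ran over the 13149 genes tested, with a threshold of 0.05, and 33 members passed the count filter. Of a gene with 9 counts or fewer in a group the ratio of summed counts is given with an exact 95% interval, which covers counting error only, and of a group at 0 a bound at 3 counts per library. Levels are TMM-scaled CPM, and between genes CPM per kilobase of union exon. The alternatives were RLE size factors, no count filter, the compared groups alone, DESeq2 1.42.0, a replicate block, and each library left out. Where that left 1 library in a group, it was assumed to vary like the others. The script was checked on simulated counts.

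Members called with a log2 fold change of at least 1, or with a pair present, are given per library. Of each other list, only called genes among its 3 largest changes, with at least 1 CPM in either group, are named. Members and lists were chosen with earlier results of these data known. Of the listed pathway and marker genes, 7 are not analysed here.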

Additional observations from a re-analysis of the deposited data

How the results depend on the processing

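No called member changed direction under any alternative tried, and 68 of 95 calls of members kept their side of the threshold in each. With rosiglitazone, 1737 of all genes changed, and 1112 to 1338 did when a library was left out. The members that fell with rosiglitazone numbered 2, 4 without the count filter, 4 with the replicate block, and 1 to 5 with a library left out. The members that fell with MEKi numbered 10, and 4 to 9 with a library left out. The cause was not tested. The replicate number is only a name here: between groups, deviations of same-numbered libraries correlated from -0.106 to 0.1. The replicate block brought Pdgfa (-0.30, adjusted p = 0.037) and Axl (-0.21, adjusted p = 0.045) past the threshold with rosiglitazone and changed no other member call. Dividing by the longest transcript instead of the union of exons moved 111 of 148 levels per kilobase by more than 1 SD, by a factor of up to 2.33. Counts of 3 or fewer in a library limit what can be said of Ereg, Tgfa and Fgfr3 in the groups where they are near the floor. The alternatives for the other pathway lists were added after seeing the data.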
